A study of Mus musculus with 6 samples.

Results

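Transsulfuration and the methionine cycle were examined through 7 genes, Mat2a, Mat2b, Ahcy, Mtr, Mtrr, Cbs and Cth, picked by symbol from the 43346 genes of a count table for primary mouse embryonic fibroblasts. All 7 were found once each. The cells were C57BL/6 fibroblasts cultured from mouse embryos, at passage 9, exposed for 24 h to 3 µM erastin or to the solvent DMSO. Erastin inhibits the antiporter that imports cystine in exchange for glutamate, and serves as an inducer of ferroptosis, a cell death that depends on iron and lipid peroxides. There were 6 libraries, 3 for each treatment, made from rRNA-depleted total RNA. Cultures of both treatments grew in serum-containing medium with nonessential amino acids and 2-mercaptoethanol. The labels state that the experiment was done 3 times but not how the cultures were separated, so p-values measure the spread between these libraries, which may be partly technical.

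Methionine is activated to S-adenosylmethionine (SAM), the methyl donor of the cell, by methionine adenosyltransferase, whose catalytic and regulatory subunits outside the liver are encoded by Mat2a and Mat2b. After methyl transfer the product S-adenosylhomocysteine is split by AHCY, which yields homocysteine. Homocysteine either returns to methionine through the cobalamin-dependent methionine synthase MTR, which MTRR keeps active by reductive methylation of its cofactor, or it leaves the cycle through transsulfuration. In transsulfuration CBS joins homocysteine with serine to cystathionine, and CTH cleaves cystathionine to cysteine. This route lets cells make cysteine from methionine when cystine is not taken up. That is the background to looking at it in cells given erastin, an inhibitor of cystine import. Cystine uptake and cysteine levels were not measured here.

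As background to Mat2a, its messenger carries in the 3′ untranslated region short sites at which the RNA methyltransferase METTL16 is known to act, and which are known to link splicing and stability of the transcript to the SAM level. They are shown for that known role, and their part in the values here was not tested. The GENCODE M21 transcript Mat2a-202, taken because it has the most bases after an annotated stop codon, has 2178 of them. Whether this is the main protein-coding transcript was not checked, and positions can differ in other transcripts. A search of the sense strand for TACAGAGAA and TACAGAAAA found 6 sites, printed here 5′ to 3′ as DNA with the motif in capitals and named by the position of the motif's first base after the stop codon.
Site at 724: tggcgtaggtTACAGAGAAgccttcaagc
Site at 1508: ccttgtgataTACAGAGAAgtcacagggc
Site at 1687: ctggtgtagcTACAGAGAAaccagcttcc
Site at 1802: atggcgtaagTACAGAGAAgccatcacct
Site at 1913: caaggtgtccTACAGAAAAaccttgggtt
Site at 2021: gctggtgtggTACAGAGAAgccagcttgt
Among 5400 genes with at least as many bases after the stop codon, cut to 2178 bases, 5.91% had at least 1 match. Only 1 gene, Mat2a itself, had 6 or more. Both motifs were chosen for the known sites of Mat2a, so its place in this count is no independent evidence. The other 6 members had 0 matches in their longest 3′ untranslated regions, of 571 bases in Cth to 4296 bases in Cbs. A match is a description of the letters and no measurement of methylation. The counts are per gene and do not separate spliced from intron-retaining Mat2a transcripts.

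All 7 genes passed the filter on low counts. The edgeR quasi-likelihood test with Benjamini-Hochberg adjustment, taken at 0.05, called 43.1% of the 14000 genes tested, 21.6% higher and 21.5% lower with erastin. Among the 7 members 3 rose, Cth, Mat2a and Mtrr, and 0 fell (0 also at an unadjusted p under 0.05 and with DESeq2). The median log2 fold change of the members was 0.12, against -0.0014 over all genes tested. The erastin and DMSO libraries did not overlap in the same 3 of 7 members, as they did not in 52.5% of all genes tested. In RNA from whole cultures, fewer cells of a type and less RNA per cell cannot be told apart.

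**Figure D1:**
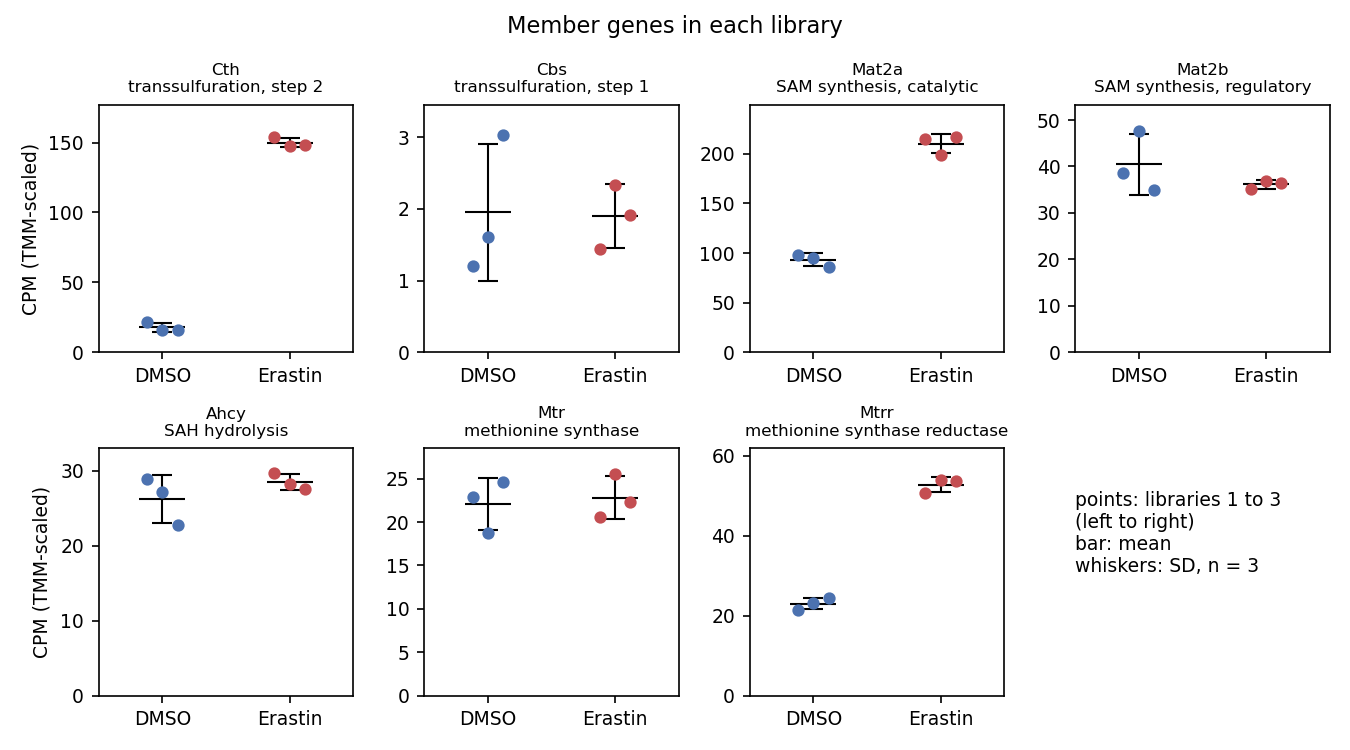
Expression of each member gene in the 3 DMSO and 3 erastin libraries, in CPM scaled by TMM factors on a linear axis from 0 with a separate range for each gene. Points are libraries, horizontal bars means and whiskers SD (n = 3). The erastin libraries stood above all DMSO libraries for Cth, Mat2a and Mtrr, and the groups overlapped for Cbs, Mat2b, Ahcy and Mtr.

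The SAM-making step came first in the order of the cycle. Mat2a (ENSMUSG00000053907.9, GRCm38 chromosome 6, 72432799 to 72439558, minus strand), the catalytic subunit, had 98.3, 95.5 and 85.9 CPM in the DMSO libraries and 215, 199 and 217 CPM in the erastin libraries. CPM are read counts scaled by library size, here with TMM factors. The lowest erastin library was above the highest DMSO library by far more than the spread within either group. Mat2a rose 2.26-fold (95% interval 2.00 to 2.54, edgeR adjusted p = 4.22e-08, log2 fold change 1.17 with SE 0.08). Particl, a gene annotated on the opposite strand, overlaps 11.3% of the exon bases of Mat2a, and the sources used here do not say whether the counting used the strand.

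Mat2b (ENSMUSG00000042032.9, chromosome 11, 40679314 to 40695203, minus strand), the regulatory subunit, stood at 38.7, 47.7 and 34.9 CPM with DMSO and at 35.1, 36.8 and 36.5 CPM with erastin. The groups overlapped, and the DMSO libraries were the more variable. The fold change of 0.891 (95% interval 0.745 to 1.07, edgeR adjusted p = 0.287) did not pass, and its interval does not reach the rise of Mat2a. The ratio of Mat2a to Mat2b, each per kilobase of exon, was 2.83, 2.23 and 2.74 in the DMSO libraries and 6.83, 6.03 and 6.63 in the erastin libraries. These ratios did not overlap between the treatments. The mean log2 ratio was higher by 1.33 with erastin (2-sided exact permutation test, p = 0.1, also 0.1 adjusted over 4 pairs of members, and 0.1 is the smallest p that 3 against 3 libraries allow). The size of the ratio depended on the gene length used, with means of 1.70 and 4.23 when the longest transcript replaced the union of exons. In this pair and the later ones a member that rose was set against an uncalled member. The ratios therefore restate the single-gene changes.

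Ahcy (ENSMUSG00000027597.11, chromosome 2, 155059310 to 155074497, minus strand), which removes the inhibitory product of SAM-dependent methylation, had 28.9, 27.2 and 22.7 CPM with DMSO and 29.7, 28.3 and 27.6 CPM with erastin. The lowest library was DMSO replicate 3, and the other 5 lay within 27.2 to 29.7 CPM. Its fold change of 1.08 (95% interval 0.90 to 1.31, edgeR adjusted p = 0.487) did not pass. Ahcy has copies elsewhere in the genome: 66.0% of its 50-base words also occur in Gm4737 and 30.2% in Gm9826. The deposited table gave Gm4737 between 3 and 39 reads and Gm9826 between 10 and 39 reads a library, beside 292 to 637 for Ahcy, so reads shared with a copy leave the Ahcy level uncertain. The ratio of Mat2a to Ahcy per kilobase was 2.12, 2.19 and 2.36 with DMSO and 4.53, 4.40 and 4.90 with erastin, again without overlap (log2 difference 1.05, exact permutation p = 0.1, 0.1 adjusted over the 4 pairs).

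The remethylation of homocysteine to methionine needs Mtr and Mtrr, which lie on the same chromosome. Mtr (ENSMUSG00000021311.8, chromosome 13, 12182712 to 12258113, minus strand), the synthase, had 22.9, 18.8 and 24.6 CPM with DMSO and 20.6, 25.6 and 22.3 CPM with erastin. The groups covered nearly the same range. The fold change of 1.03 (95% interval 0.833 to 1.28, edgeR adjusted p = 0.816) did not pass, and its sign turned when DMSO replicate 2 (log2 fold change -0.057) or erastin replicate 2 (-0.038) was left out.

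Mtrr (ENSMUSG00000034617.6, chromosome 13, 68560780 to 68582149, minus strand), the reductase that reactivates the synthase, had 21.5, 23.2 and 24.4 CPM with DMSO and 50.7, 53.9 and 53.7 CPM with erastin. Every erastin library was above every DMSO library, and the spread within each group was small. Mtrr rose 2.29-fold (95% interval 1.96 to 2.68, edgeR adjusted p = 4.05e-07, log2 fold change 1.20 with SE 0.10). The ratio of Mtr to Mtrr per kilobase was 0.648, 0.495 and 0.616 in the DMSO libraries. It was 0.247, 0.289 and 0.254 in the erastin libraries, all lower than with DMSO (log2 difference -1.15, exact permutation p = 0.1, 0.1 adjusted over the 4 pairs).

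**Figure D2:**
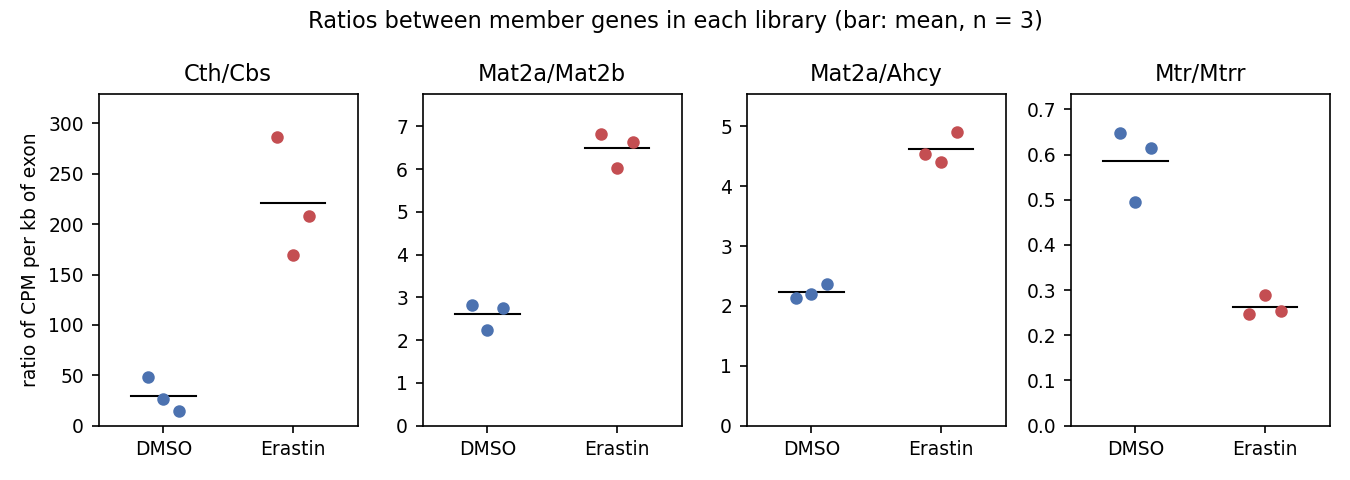
Ratios of CPM per kilobase of exon between pairs of member genes in each library (points) with the mean (bar, n = 3), on linear axes from 0 with a separate range for each pair. The DMSO and erastin libraries did not overlap in any of the 4 pairs: Cth/Cbs, Mat2a/Mat2b and Mat2a/Ahcy were higher and Mtr/Mtrr was lower with erastin. Each pair sets a member that rose against a member that did not pass, so the ratios restate the single-gene changes and are no separate evidence.

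Mtrr starts head to head with Fastkd3, which encodes a mitochondrial RNA-binding protein and is transcribed away from it. RefSeq gives Mtrr 2 starts, and the sequence between the start nearer to Fastkd3 and the first Fastkd3 exon is shown because it lies upstream of both genes. Before the other start, the stretch outside exons has 84 bases (68582150 to 68582233) and contains the printed run. It covers chr13:68582170-68582233 on GRCm38.p6 and is printed 5′ to 3′ on the minus strand, the strand of Mtrr.
Mtrr upstream: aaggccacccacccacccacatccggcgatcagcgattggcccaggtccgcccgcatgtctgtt
The run has 64 bases, of which 65.6% are G or C. Fastkd3, chosen for its position, had 9.21 ± 2.98 CPM with DMSO and 6.04 ± 1.57 CPM with erastin (n = 3, SD, with edgeR adjusted p = 0.0981, log2 fold change -0.61 with SE 0.28), so it did not pass, and its estimate lay on the other side of 0 from that of Mtrr.

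The RefSeq table of promoters (GRCm38.p6) held 6 of the 7 members: Mat2a, Mat2b, Ahcy, Mtr, Mtrr and Cbs. The 250 bases before each start were searched on both strands for TGATGNAA, the core of the C/EBP-ATF element that ATF4 dimers bind, for TGACNNNGC, the core of the antioxidant response element that NRF2 binds, and for TGACGTCA, the cAMP response element. Not every window was plain upstream sequence by GENCODE M21. The Mat2a window lay wholly in annotated exons of Mat2a or Particl, and the Mat2b window lay inside the bounds of Mat2b. Windows of Cbs and Mtrr also held annotated exons. None of these 6 genes had a match to any of the 3. Among all 32851 promoters of the table the shares with a match were 3.45%, 10.2% and 1.55%. That these letters are not in this window says nothing about binding elsewhere.

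The last members act in transsulfuration. Cbs (ENSMUSG00000024039.10, chromosome 17, 31608894 to 31637238, minus strand), which commits homocysteine to the route, was scarce, with 16, 29 and 39 reads in the DMSO libraries and 31, 39 and 37 in the erastin libraries. These counts were 1.21, 1.61 and 3.04 CPM with DMSO and 1.44, 2.33 and 1.92 CPM with erastin. The erastin libraries lay inside the range of the DMSO libraries. The fold change of 0.975 (95% interval 0.467 to 2.03, edgeR adjusted p = 0.961) did not pass, and at this depth neither a halving nor a doubling lay outside the interval. Its sign turned when DMSO replicate 3, the highest library, was left out (edgeR adjusted p = 0.58, log2 fold change 0.41 with SE 0.54) and when erastin replicate 1 was (0.13).

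Cth (ENSMUSG00000028179.11, chromosome 3, 157894248 to 157925077, minus strand), which releases cysteine from cystathionine, had 21.6, 15.6 and 16.0 CPM with DMSO and 154, 148 and 149 CPM with erastin. The erastin libraries were close to each other and all far above the DMSO libraries. Cth rose 8.50-fold (95% interval 7.18 to 10.1, edgeR adjusted p = 2.19e-10, log2 fold change 3.09 with SE 0.11), the 49th highest log2 fold change among the 14000 genes tested. The ratio of Cth to Cbs per kilobase was 47.9, 26.0 and 14.1 with DMSO and 286, 169 and 208 with erastin (log2 difference 3.05, exact permutation p = 0.1, 0.1 adjusted over the 4 pairs). The ratios did not overlap between the treatments, and their denominator, Cbs, rested on 16 to 39 reads a library.

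**Figure D3:**
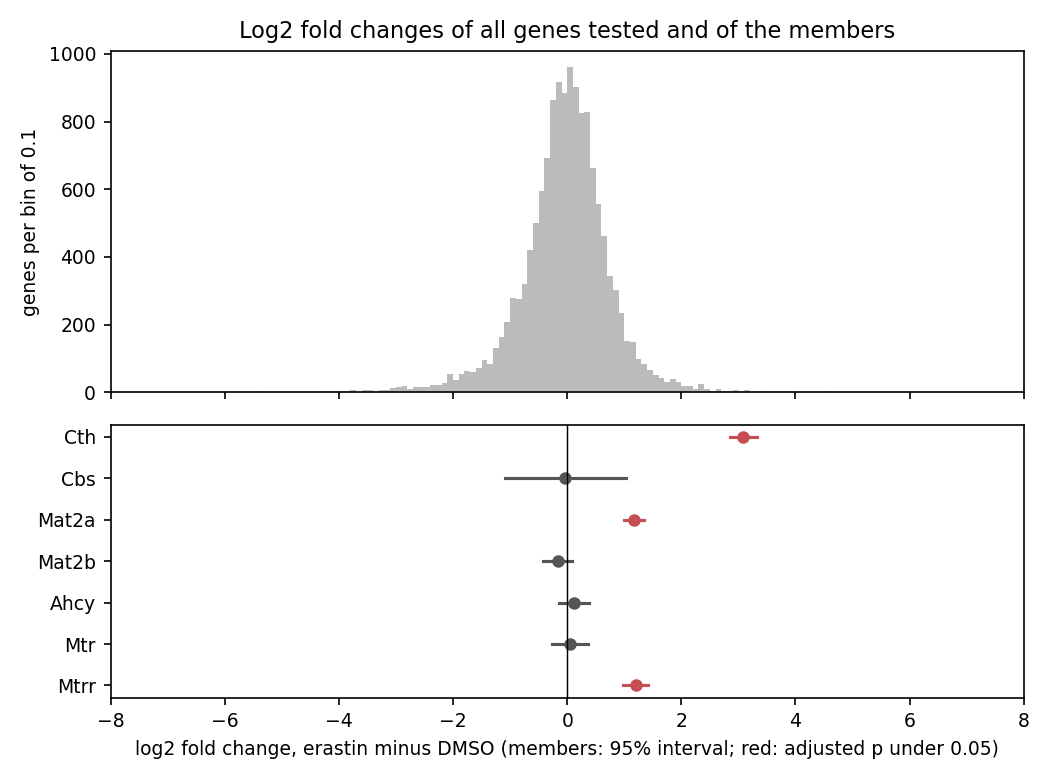
Top, the number of genes in bins of 0.1 of the log2 fold change (erastin minus DMSO) over the 14000 genes tested; bottom, the log2 fold change of each member with its 95% interval on the same axis, red where the adjusted p-value was under 0.05. Cth lies in the right tail at 3.09, Mat2a and Mtrr lie at 1.17 and 1.20, and the intervals of the other 4 members include 0.

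Compared on a per-length scale, CPM per kilobase of exon, the order of the levels differed between the treatments. With DMSO, Mat2a led at 20.8 ± 1.44, followed by Ahcy at 9.37 ± 1.14, Mat2b at 8.09 ± 1.31, Cth at 6.35 ± 1.21, Mtrr at 4.43 ± 0.273, Mtr at 2.59 ± 0.350 and Cbs at 0.261 ± 0.128 (SD, n = 3). The ranges of Ahcy and Mat2b overlapped, as did those of Mat2b and Cth. Within each DMSO library, though, Ahcy was above Mat2b (10.3 against 7.74, 9.70 against 9.54 and 8.10 against 6.99). Cth was just above Mat2b in DMSO replicate 1 (7.743 against 7.736) and below it in the others (5.58 against 9.54 and 5.72 against 6.99). These differences within libraries were not tested. With erastin, Cth led at 53.8 ± 1.24 and Mat2a came next at 46.9 ± 2.16, without overlap. Ahcy at 10.2 ± 0.366 and Mtrr at 10.2 ± 0.343 overlapped, and Mat2b at 7.22 ± 0.181, Mtr at 2.68 ± 0.296 and Cbs at 0.254 ± 0.0596 followed. With the length of the longest transcript in place of the union of exons, Mat2b came second to Mat2a with DMSO (16.4 against 27.5) and behind Cth and Mat2a with erastin (14.7), while Cth still led with erastin (82.7 against 62.1 for Mat2a). Gene lengths were those of GENCODE M21, which need not be the release used for the counting.

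**Figure D4:**
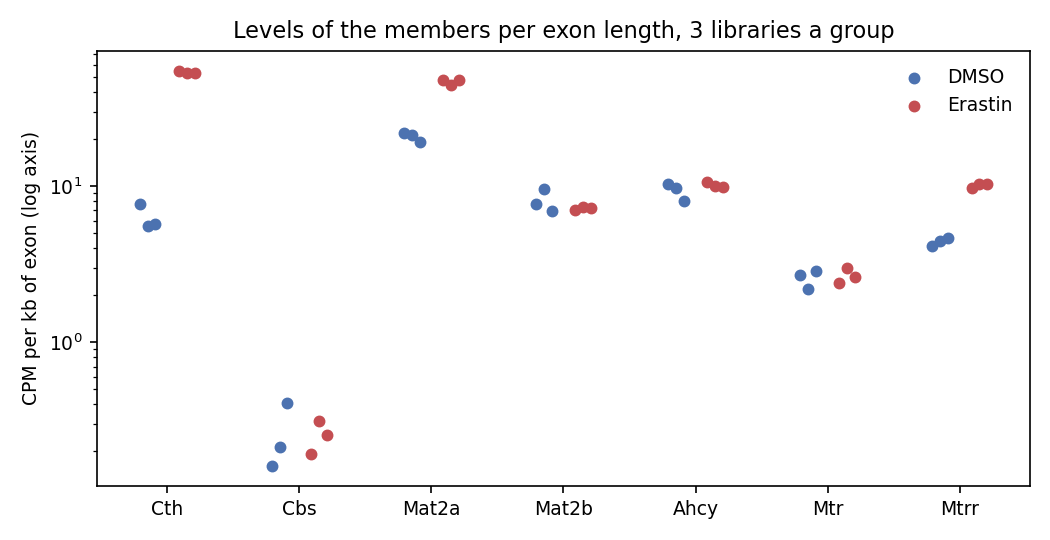
Levels of the 7 members as CPM per kilobase of exon on a log axis, with 1 point for each of the 3 DMSO (blue) and 3 erastin (red) libraries. Cth moved from the middle of the members to the top, and Cbs lay below the other 6 in every library.

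The genes whose pattern over the 6 libraries was nearest to that of Cth, by Euclidean distance of log2 CPM centred on each gene's mean, were Extl1, Egln3, Fosl1, Csrnp1 and Ndrg1, at distances of 0.42, 0.46, 0.53, 0.61 and 0.65 on the log2 scale. Only genes averaging 50 or more reads a library entered this ranking. Egln3 encodes an oxygen-sensing prolyl hydroxylase and Fosl1 a subunit of the AP-1 transcription factor. Extl1 went from 1.63 ± 0.169 to 12.6 ± 1.02 CPM and Ndrg1 from 27.8 ± 3.88 to 186 ± 27.0 CPM (SD, n = 3). With 6 libraries in 2 treatments, the distance mainly compares the size of the treatment difference.

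Around the members, 6 lists of related genes were read from the same fit, and 31 of the 61 genes tested in them passed (50.8%, beside 43.1% of all genes tested), so nothing particular to these lists is read from the count. In the list for methionine salvage and the SAM pool, 2 of the 11 genes tested rose and 2 fell, with a median log2 fold change of 0.21. Mtap, which splits methylthioadenosine, fell by 0.40 (edgeR adjusted p = 0.0017), and Mri1, the next enzyme on the way back to methionine, fell by 0.48 (edgeR adjusted p = 0.00794). Ahcyl2, a relative of Ahcy that was named after its values were seen, rose and stood at 30.0 ± 2.27 CPM with DMSO and 39.0 ± 4.41 CPM with erastin (edgeR adjusted p = 0.0172). The Mri1 result did not pass without erastin replicate 1 (edgeR adjusted p = 0.0501). Mat1a, the liver-type counterpart of Mat2a, did not pass the filter on low counts, nor did the 3 other listed genes Gnmt, Bhmt and Bhmt2, known mainly from liver and kidney.

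Among 17 tested genes of cysteine and sulfide use, 7 rose and 2 fell, with a median of 0.37. Slc7a11, the transport subunit of the antiporter that erastin blocks, had 16.1, 11.5 and 15.6 CPM with DMSO and 213, 220 and 141 CPM with erastin (log2 fold change 3.75, edgeR adjusted p = 1.01e-09). Gclm, the modifier subunit of the enzyme that starts glutathione synthesis, rose by 1.96 in log2 (edgeR adjusted p = 1.31e-09), and Chac1, which degrades glutathione, by 2.22 (edgeR adjusted p = 1.36e-09). The genes that fell were Cdo1 and Ado, named after their values were seen, which encode dioxygenases acting on cysteine and on cysteamine. Cdo1 fell from 52.5 ± 2.07 to 33.3 ± 0.839 CPM and Ado from 61.7 ± 8.38 to 42.8 ± 2.19 CPM (n = 3, SD, with edgeR adjusted p = 6.13e-05 and 0.00116). The sulfide-handling genes Mpst, Ethe1, Sqor, Tst and Suox had log2 fold changes of -0.49 to 0.52, and did not pass (edgeR adjusted p = 0.0518 for Mpst and 0.152 to 0.387 for the others).

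MTR depends on cobalamin, and CBS and CTH depend on vitamin B6. In the list for handling these cofactors, 2 of 12 tested genes rose and 2 fell, with a median of 0.046. Lmbrd1, which takes part in the release of cobalamin from lysosomes, rose from 53.7 ± 3.14 to 87.1 ± 1.83 CPM (n = 3, SD, with edgeR adjusted p = 1.25e-05 and log2 fold change 0.70). Mut, the other cobalamin-dependent enzyme of mammals, rose by 0.50 (edgeR adjusted p = 0.00154) and Mmab, which makes its form of the cofactor, fell by 0.59 (edgeR adjusted p = 0.00751). Mmadhc, which directs cobalamin between MTR and that enzyme and was named after its values were seen, fell by 0.33 (edgeR adjusted p = 0.0351). The vitamin B6 genes Pdxk and Plpbp both had log2 fold changes of 0.11 and did not pass (edgeR adjusted p = 0.494 and 0.418).

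Of 7 tested methyltransferases that spend SAM on small molecules or proteins, 1 rose and 3 fell, with a median of -0.27. Gamt, which makes creatine, had 9.75, 9.98 and 9.81 CPM with DMSO and 1.54, 2.93 and 1.92 CPM with erastin, a fall by 2.22 on the log2 scale (edgeR adjusted p = 2.24e-05). Nnmt, which methylates nicotinamide, rose by 0.38 (edgeR adjusted p = 0.00637). Tpmt fell by 0.88 (edgeR adjusted p = 0.0272) but did not pass without DMSO replicate 2 or without erastin replicate 2 (edgeR adjusted p = 0.135 and 0.0959). Icmt, which methylates prenylated proteins and was named after its values were seen, fell by 0.27 (edgeR adjusted p = 0.0342). Its groups overlapped, at 117, 119 and 97.8 CPM with DMSO and 92.3, 83.8 and 100 CPM with erastin.

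Among 8 transporters that carry methionine with other neutral amino acids, 3 rose and 1 fell, with a median of 0.36. Slc38a1 rose from 132 ± 7.04 to 278 ± 3.31 CPM, Slc7a5 from 221 ± 6.08 to 387 ± 35.0 CPM and Slc38a2 from 254 ± 21.5 to 418 ± 24.4 CPM (n = 3, SD, with edgeR adjusted p = 3.52e-08, 1.06e-06 and 3.78e-06). The gene that fell, named after its values were seen, was Slc43a1, at 2.31 ± 0.12 CPM with DMSO and 0.856 ± 0.463 CPM with erastin (edgeR adjusted p = 0.0458).

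All 6 genes in the list of regulators rose (edgeR), with a median of 0.75 in log2, beside 21.6% of all genes tested that rose. In this list 0 fell (0 also at an unadjusted p under 0.05 and with DESeq2). Atf4, which encodes a transcription factor that is known to act on Cth and other amino acid genes, went from 217 ± 17.0 to 414 ± 9.52 CPM (n = 3, SD, with edgeR adjusted p = 1.66e-07 and log2 fold change 0.93), and Nfe2l2, which encodes NRF2, by 0.95 (edgeR adjusted p = 1.96e-07). Myc rose by 1.49 (edgeR adjusted p = 4.24e-08) and Trib3, a target and inhibitor of ATF4, by 0.56 (edgeR adjusted p = 3.68e-05). Mettl16, whose product binds the Mat2a sites printed above, had 22.4, 23.9 and 20.1 CPM with DMSO and 31.4, 29.7 and 31.1 CPM with erastin (edgeR adjusted p = 0.0058, log2 fold change 0.47 with SE 0.12). Ddit3 rose by 0.38 (edgeR adjusted p = 0.0199), which did not pass without DMSO replicate 1 or without erastin replicate 3 (edgeR adjusted p = 0.0987 and 0.102). The list was drawn up with earlier results for some of these genes known, so its count is no independent evidence.

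**Figure D5:**
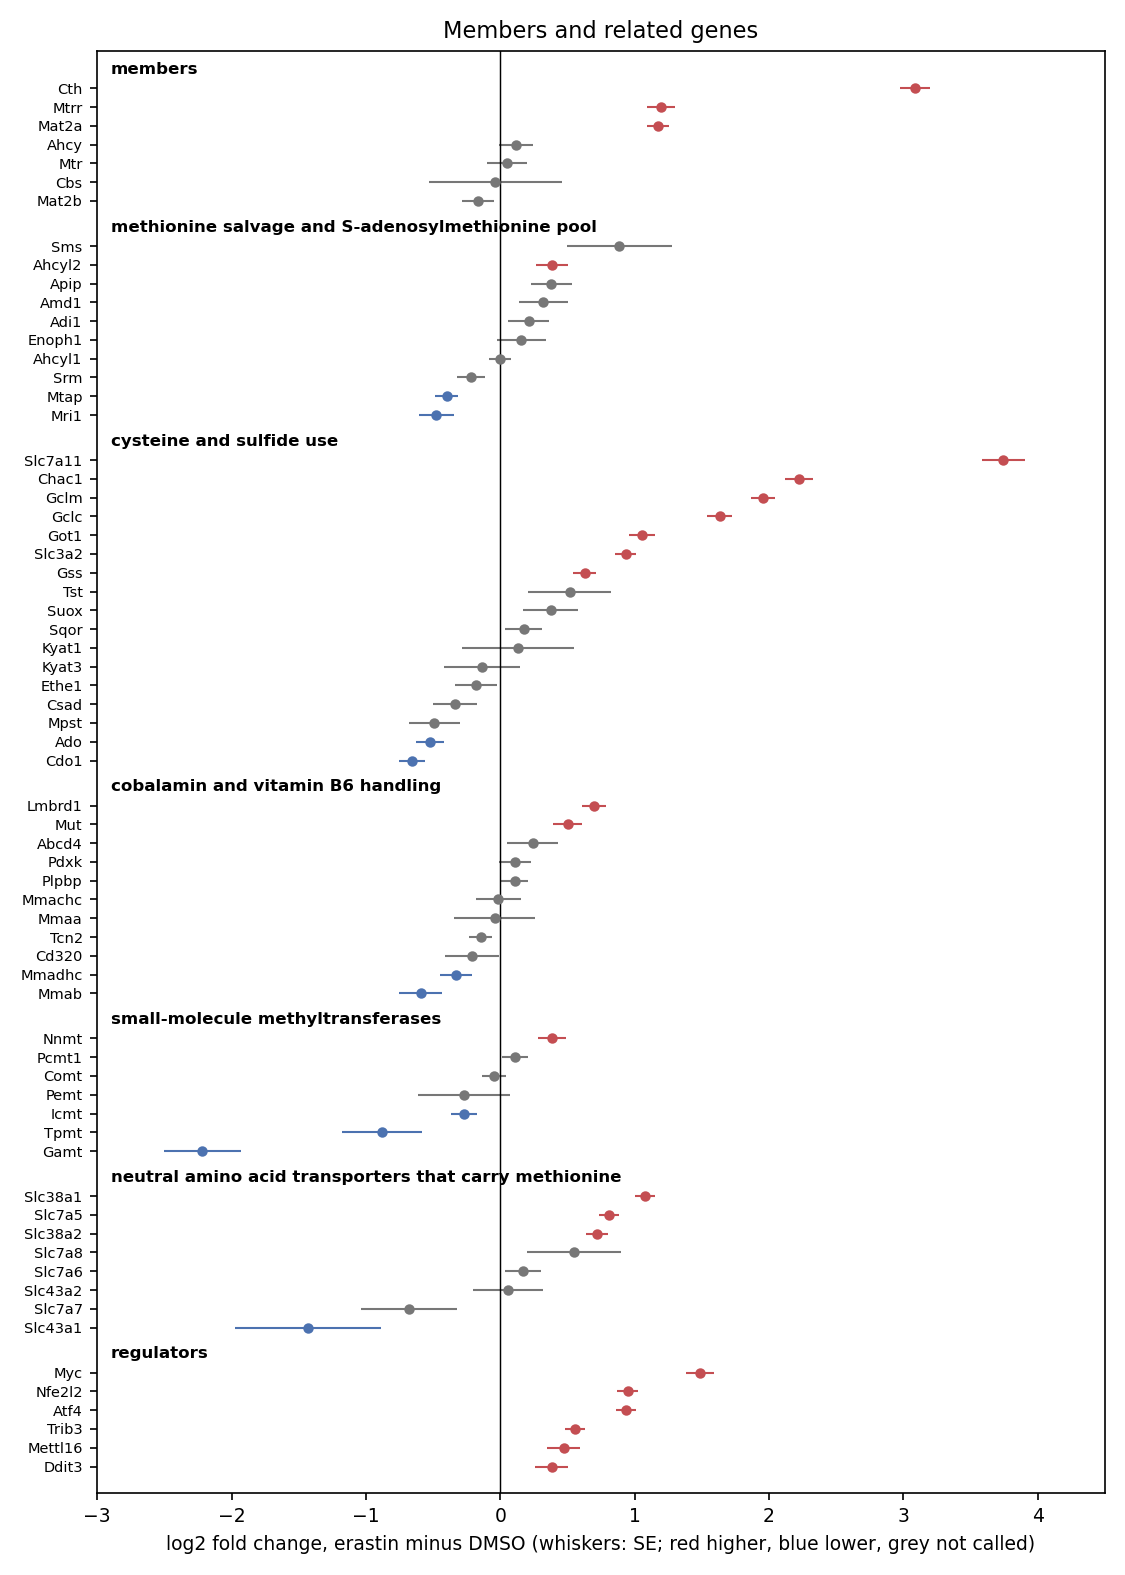
Log2 fold changes (erastin minus DMSO) with SE for the 7 members and the tested genes of the 6 related lists (2 listed genes not reported here are not drawn), sorted within each list, red where higher and blue where lower at an adjusted p-value under 0.05 and grey otherwise. Slc7a11 at 3.75 and Cth at 3.09 are the highest values and Gamt at -2.22 is the lowest.

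Total counts ran from 13333911 to 20509970 a library, and 3 counts, taken as the smallest detectable level, were worth 0.146 to 0.225 CPM of the unscaled totals. The 9 fibroblast markers had at least 1 CPM in all libraries, and their summed level was 28531 to 29719 CPM with DMSO and 16762 to 18724 CPM with erastin. This sum was mostly Col1a1, Col1a2, Vim and Col3a1. Dcn overlapped between the treatments (141, 187 and 185 CPM with DMSO, 132, 122 and 163 CPM with erastin). Every other fibroblast marker was lower in all erastin libraries than in any DMSO library. Summed levels were 9.23 to 16.9 CPM for 6 macrophage and blood markers (Hbb-bs at 0), 2.00 to 3.17 CPM for 4 epithelial markers and at most 0.674 CPM for 4 hepatocyte markers (Afp at 0) over all libraries. The 3 endothelial markers summed to 2.16 to 4.76 CPM with DMSO and 7.60 to 9.85 CPM with erastin, mostly Kdr, and the 3 neural markers to 71.7 to 101 and 54.7 to 61.2 CPM, mostly Tubb3. The part of these shifts in the values of the members was not tested.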

How the data were processed

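The authors deposited raw read counts, whole numbers without normalization, as 1 table of 43346 genes by 6 libraries, and 0 columns were left unused. The submitters' processing notes name HTSeq 0.9.1, SAMtools and the build mm10. The aligner, annotation release, strand setting and treatment of multi-mapping reads are not given in the sources used here. Each column name is a number that 1 sample's label carries, which assigned it. Identifiers were matched, without version, to GENCODE M21 (GRCm38, 98.0% matched).

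Counts were analysed with edgeR 4.0.16 in R 4.3.3: filterByExpr (minimum count 10, total 15) left 14000 genes, scaled with TMM factors and tested by glmQLFit and glmQLFTest, treatment being the only term. P-values were Benjamini-Hochberg adjusted over all 14000 genes (threshold 0.05). Intervals are 95% intervals from the SE and the fit's degrees of freedom. The fit was tested on simulated data. No library pair agreed within sampling noise (chi-square per degree of freedom 11.0 to 19.2 within groups). Counting floors cover counting error only, since PCR was used without molecular identifiers. Alternatives were DESeq2 1.42.0, other scalings and filters, a replicate block, a GC and length offset (mgcv 1.9.3), a threshold of 0.01 and leaving out each library.

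Named genes were the members, the regulators, the 3 genes of each other list with the smallest p-value and the 5 genes most like the member with the largest change. The alternatives were read gene by gene for these only. Fastkd3 and the genes named after their values were seen have no such check. Values of 2 listed genes are not reported here, although the counts and medians of their lists include them. The members and lists were chosen with earlier results of these data known.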

Additional observations from a re-analysis of the deposited data

How the results depend on the processing

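The 3 rises (Cth, Mat2a, Mtrr) passed in all 15 alternatives run for each, with log2 fold changes of 3.00 to 3.25, 1.09 to 1.24 and 1.14 to 1.26, and Mat2b, Ahcy, Mtr and Cbs did not pass in any of theirs. The count of genes passing ran from 4305 (adjusted p-value under 0.01) to 6104 (no filter), and was 4802 to 5809 when 1 library was left out. With the replicate block 5882 genes, 3 members and 30 related genes passed, and no call of a member changed. The labels do not say that equal numbers mark a shared culture. Between treatments, deviations of equally numbered libraries correlated at 0.040, 0.0038 and -0.0055. Those of differently numbered libraries correlated at -0.045 to 0.035 (mean -0.0063). Of 6 libraries, 3 correlated best with their own number. Genes higher made up 50.2% of those passing, 44.0% with upper-quartile factors and 57.1% with total count only, where the median of all genes was -0.0014, -0.055 and 0.065.

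Signs turned only for uncalled members. Cbs was 0.028 with total count only and 0.035 with the replicate block, and ran from -0.28 to 0.41 when 1 library was left out. Mtr was -0.0043 with upper-quartile factors, -0.044 with the GC and length offset and -0.043 with that offset and the replicate block, and ran from -0.057 to 0.13 when 1 library was left out. The causes were not tested. Adding the reads of its copies to Ahcy, chosen after seeing the data, gave 0.17 (edgeR adjusted p = 0.28). For Cbs, 16 to 39 reads a library limited the precision.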
